A study of Mus musculus with 78 samples.

Results

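The genes described here are 4 that encode carrier proteins of serum, Ttr, Rbp4, Afp and Trf, and the 3 that encode the chains of fibrinogen, Fga, Fgb and Fgg. They were taken by name from 3 expression tables of early mouse embryos, and make up 7 of the 22563 genes that the tables share. The study followed the first lineages of the mouse embryo with maps of gene expression, DNA methylation and chromosome contacts, in 78 samples. Only its 30 RNA-seq libraries, 2 in each of 15 groups, were used here.

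The embryos used here came from C57BL/6N females mated with DBA/2N males and carried no named mutation. In vivo, visceral endoderm and epiblast were separated at E5.5 and E6.5, and at E7.5 the embryo was divided into endoderm, ectoderm, primitive streak and mesoderm. Inner cell mass and trophectoderm at E3.5 and inner cell mass at E4.0 represented the blastocyst. Those earlier samples came from superovulated mothers and were lysed directly, and immunosurgery was used for the inner cell mass. By contrast, the samples from E5.5 on came from natural matings and their RNA was purified on a column. In culture, blastocysts flushed from the uterus were grown in a medium with fetal bovine serum for 1, 2 or 4 days. The protocol gives E4.5 for the flushing, whereas the columns of the libraries of 1 and 2 days carry E4.0. Visceral endoderm and epiblast were then separated after 4 days, while the libraries of 1 and 2 days are labelled as whole embryos, although the written protocol speaks of isolated inner cell mass. The labels do not say whether the 2 libraries of a group came from separate litters, so the spread behind each p-value may be technical. In the main fit that spread is pooled for each gene over all 15 groups, cultured ones included. It is not the spread of the compared libraries alone.

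Visceral endoderm is the epithelium that wraps the epiblast before the liver and the yolk sac circulation exist. It takes up maternal nutrients at its outer face and secretes serum proteins that hepatocytes make later in life. Transthyretin (Ttr) carries thyroid hormone and binds retinol-binding protein 4 (Rbp4), which carries retinol. Alpha-fetoprotein (Afp) is the main fetal relative of albumin, and transferrin (Trf) delivers iron to cells that bear its receptor. Fibrinogen is assembled in the secreting cell from an alpha (Fga), a beta (Fgb) and a gamma (Fgg) chain, and thrombin turns it into the fibrin of a clot.

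Expression was given as FPKM, a fragment count scaled to transcript length and to the mapped total of the library, so levels can be compared between genes within a table. Summed FPKM lay between 272055 and 486836 in the 22 in vivo libraries, and 8457 to 10417 genes reached 1 FPKM there. Read depth is unknown, and a gene listed at 0 may have been below detection. Libraries of a group correlated with Pearson r between 0.898 (cultured for 2 days) and 0.994 (E7.5 mesoderm) over the 13493 genes tested. All 7 genes passed the filter on low values. Fga, Fgb and Fgg reached 1 FPKM only in endoderm libraries, in vivo or cultured, and so passed only through tissues where they were high. Tests used limma on log2(FPKM+1), a scale that understates the change of low genes. A difference was called where its adjusted p was below 0.05 and its size, as a log2 fold, reached 1.

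The labels of the endoderm samples were checked against genes that mark the tissue. The sum of 7 visceral endoderm markers (Amn, Cubn, Apoa1, Apob, Hnf4a, Ihh and Dab2; Rhox5, also listed, was not matched in the tables) was 1990 and 3351 FPKM in E5.5 visceral endoderm, 4894 and 5543 FPKM in E6.5 visceral endoderm and 4147 and 4176 FPKM in E7.5 endoderm. It lay between 6.2 and 21.4 FPKM in the epiblast, ectoderm, streak and mesoderm libraries from E5.5 to E7.5. All 7 markers were called higher in visceral endoderm than in epiblast at both stages. The 7 markers of definitive endoderm summed to 1414 and 1382 FPKM in E7.5 endoderm, against 665 and 735 FPKM in E6.5 visceral endoderm. Of these 7 markers 1 was called higher in E7.5 endoderm (Trh), 1 lower (Hhex) and 5 were not called, with a median log2 fold of -0.49. At E5.5 and at E6.5, 6 of these 7 were also called higher in visceral endoderm than in epiblast. They thus do not separate definitive from visceral endoderm here. Of 7 parietal endoderm markers 5 were higher in visceral endoderm at E5.5 and 6 at E6.5. In a bulk tissue, fewer cells of a type and less RNA per cell cannot be told apart, and neither can the shares of visceral and definitive endoderm in the E7.5 values. Decidual markers summed to at most 8.39 FPKM in any library.

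The 4 carrier genes ranged from 55.9 to 1763 FPKM in the endoderm libraries and reached at most 4.74 FPKM in the other libraries in vivo. Ttr had 898 and 1149 FPKM in E5.5 visceral endoderm, 704 and 748 FPKM in E6.5 visceral endoderm, and 1419 and 980 FPKM in E7.5 endoderm. The other 16 in vivo libraries held at most 3.52 FPKM, in an E5.5 epiblast library. Ttr ranked 35 and 33 among all genes of the E5.5 visceral endoderm libraries, counted from the most abundant. Its E7.5 and E5.5 values overlapped, while both E6.5 values lay below them.

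Rbp4, whose protein travels in serum bound to transthyretin, had a different course. It measured 340 and 287 FPKM in E5.5 visceral endoderm, 472 and 636 FPKM in E6.5 visceral endoderm, and 1763 and 1573 FPKM in E7.5 endoderm. The stages did not overlap, and at E7.5 the gene ranked 14 and 16 in its libraries. Outside endoderm the highest value was 4.74 FPKM, in E7.5 mesoderm. The ratio of Rbp4 to Ttr was 0.379 and 0.250 at E5.5, 0.670 and 0.850 at E6.5, and 1.24 and 1.60 at E7.5. Transcripts of the retinol carrier were thus fewer than those of its partner in both visceral endoderm stages and more numerous in E7.5 endoderm.

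Afp, the fetal albumin relative, had 242 and 143 FPKM in E5.5 visceral endoderm, 928 and 902 FPKM in E6.5 visceral endoderm, and 558 and 578 FPKM in E7.5 endoderm. Trf had 55.9 and 91.5 FPKM, 182 and 222 FPKM, and 116 and 121 FPKM in the same tissues. Both genes were highest at E6.5 with no overlap between stages. Elsewhere in vivo Afp reached at most 2.54 FPKM and Trf at most 3.11 FPKM, both in epiblast. The ratio of Afp to Ttr was 0.269 and 0.125 at E5.5, 1.32 and 1.21 at E6.5, and 0.393 and 0.589 at E7.5, so that among the endoderm libraries Afp exceeded Ttr only at E6.5.

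**Figure D1:**
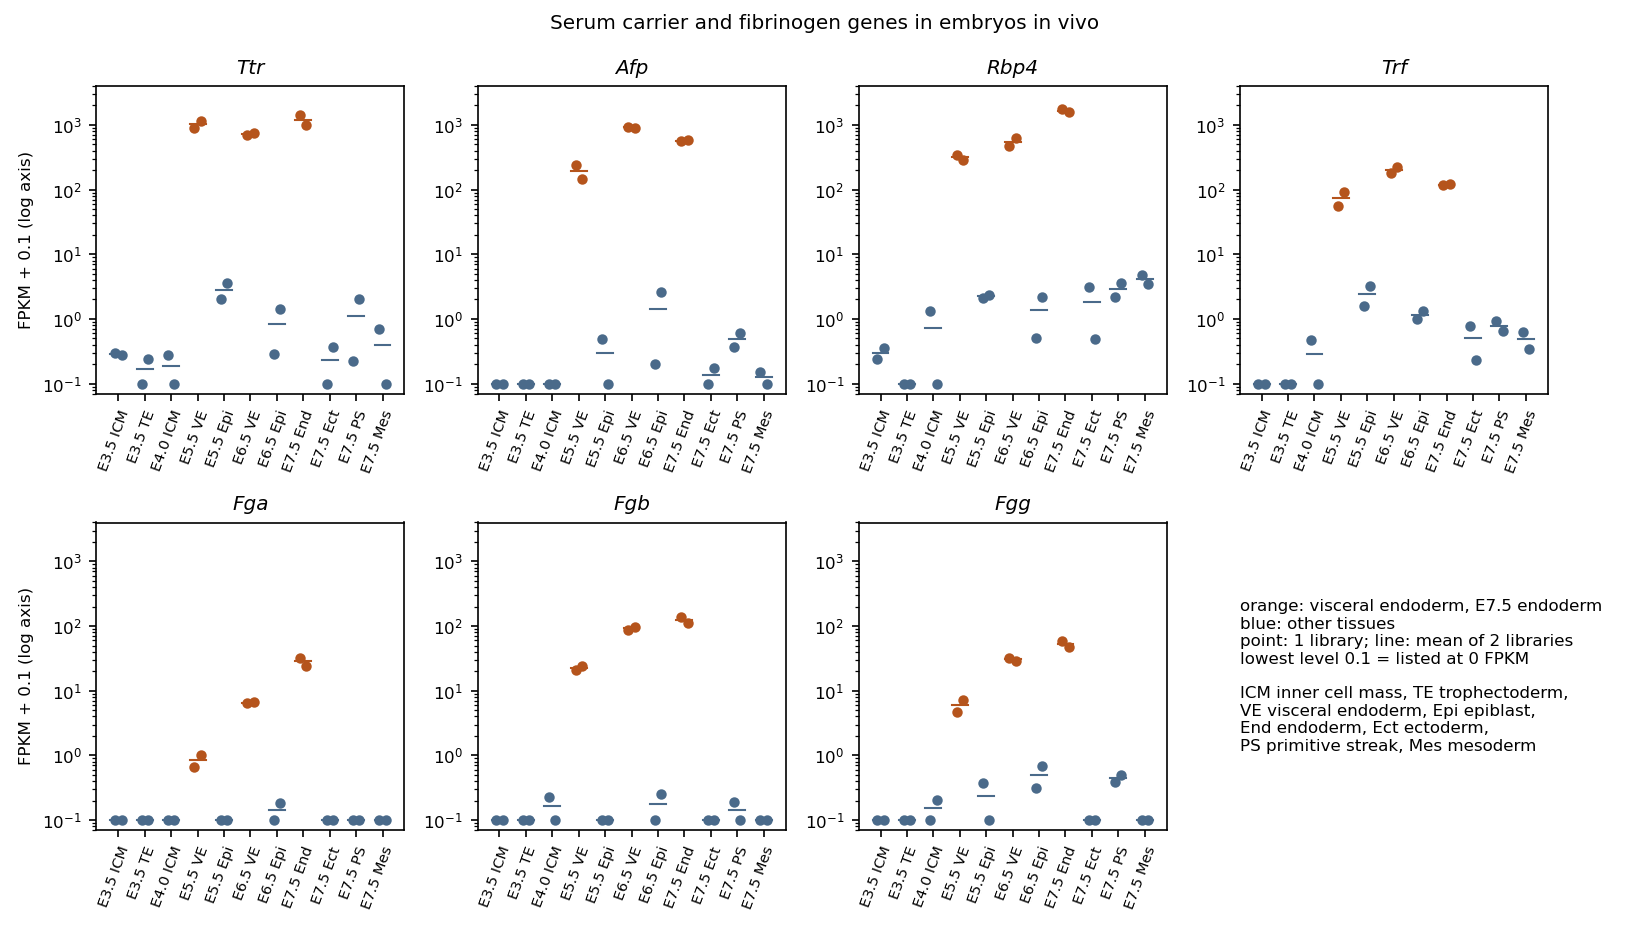
Level of each of the 7 genes (FPKM + 0.1, log axis) in 11 tissues in vivo, from E3.5 to E7.5. A point is 1 library and a line the mean of the 2 libraries. Orange marks visceral endoderm and E7.5 endoderm, blue the other tissues. For every gene the endoderm points lie above all blue points. Fga is the lowest of the genes in each endoderm tissue.

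The fibrinogen genes were expressed at lower levels than Ttr, Rbp4 and Afp, and were lowest at E5.5 and highest at E7.5. Fga had 0.561 and 0.925 FPKM in E5.5 visceral endoderm, 6.27 and 6.65 FPKM in E6.5 visceral endoderm, and 32.5 and 24.2 FPKM in E7.5 endoderm. Fgb had 21.0 and 24.2 FPKM, 88.2 and 95.6 FPKM, and 139 and 110.2 FPKM in the same tissues. Fgg had 4.66 and 7.16 FPKM, 32.0 and 28.8 FPKM, and 59.0 and 46.8 FPKM. For all 3 genes the stages did not overlap. With 2 libraries a stage such separation is description only, here and for the carriers. Its share over all genes was not counted. Outside endoderm no library exceeded 0.0867 FPKM for Fga, 0.154 FPKM for Fgb and 0.585 FPKM for Fgg, and each of these highest values came from the same E6.5 epiblast library.

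The chains enter the finished protein in equal numbers, but their transcripts did not. Fga made up 2.14% and 2.87% of the summed fibrinogen FPKM in E5.5 visceral endoderm, 4.95% and 5.08% in E6.5 visceral endoderm, and 14.1% and 13.3% in E7.5 endoderm. Fgb made up 80.1% and 74.9%, 69.7% and 73.0%, and 60.2% and 60.8% in the same tissues. The share of Fgg moved less, and its values ranged from 17.8% to 25.8%. The ratio of Fgb to Fga was 37.5 and 26.1 at E5.5, 14.1 and 14.4 at E6.5, and 4.26 and 4.56 at E7.5, with no overlap between stages. Transcripts of the alpha chain remained the scarcest of the 3 at every stage.

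**Figure D2:**
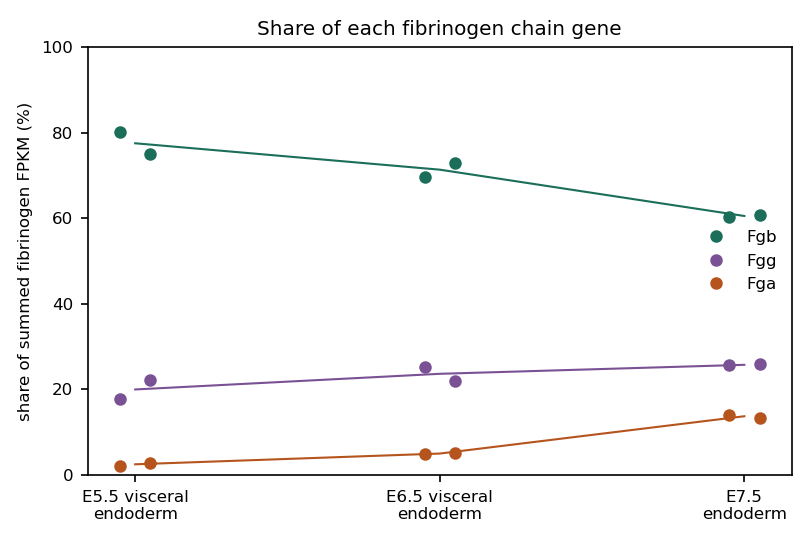
Share of Fga, Fgb and Fgg in the summed FPKM of the 3 fibrinogen genes (%), in E5.5 visceral endoderm, E6.5 visceral endoderm and E7.5 endoderm. A point is 1 library and lines join the means. The Fga share lies between 2.14% and 2.87% at E5.5 and between 13.3% and 14.1% at E7.5, while the Fgb share is 60.2% and 60.8% at E7.5.

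In the gene order of RefSeq the fibrinogen genes are direct neighbours on chromosome 3, in the order Fgg, Fga, Fgb, between Lrat and Plrg1. Lrat, an enzyme that esterifies retinol, averaged at most 0.0431 FPKM in the endoderm tissues. Plrg1, a splicing factor, was read in all tissues and averaged 22.2 FPKM in E5.5 visceral endoderm, 73.5 FPKM in E6.5 visceral endoderm and 98.4 FPKM in E7.5 endoderm. It was no higher in endoderm, since E6.5 epiblast averaged 104 FPKM and E7.5 mesoderm 113 FPKM. Afp lies between Alb and Afm on chromosome 5. Alb was listed at 0 in both E5.5 visceral endoderm libraries and both E7.5 endoderm libraries and averaged 0.0827 FPKM in E6.5 visceral endoderm, and Afm averaged 0.0900 FPKM there. Afp was thus high where its gene family neighbours were at or near 0. These flanking genes were chosen by position.

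The 150 bases before the transcription starts of the fibrinogen genes and Afp are shown, 5′ to 3′ on the strand of the gene. They are from the promoter table of RefSeq (GRCm38.p6). The promoters of Rbp4 were searched as well and are not shown. Capitals mark a match on either strand to GTTAAT, a core of the sequence that HNF1 factors recognise, or to TATAAA, the TATA box. The positions are chr5:90490564-90490713 (plus strand) for Afp, chr3:83026003-83026152 (plus strand) for Fga, chr3:83049864-83050013 (minus strand) for Fgb and chr3:83007574-83007723 (plus strand) for Fgg.
Afp: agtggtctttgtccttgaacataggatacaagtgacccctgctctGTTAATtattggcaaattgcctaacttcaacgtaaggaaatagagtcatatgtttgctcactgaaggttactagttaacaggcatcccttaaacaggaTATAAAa
Fga: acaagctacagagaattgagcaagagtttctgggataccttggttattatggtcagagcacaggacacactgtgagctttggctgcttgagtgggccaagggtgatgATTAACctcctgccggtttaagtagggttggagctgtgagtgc
Fgb: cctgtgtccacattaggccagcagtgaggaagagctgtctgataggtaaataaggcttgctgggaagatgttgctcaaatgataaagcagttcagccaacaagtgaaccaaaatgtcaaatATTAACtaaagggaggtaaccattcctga
Fgg: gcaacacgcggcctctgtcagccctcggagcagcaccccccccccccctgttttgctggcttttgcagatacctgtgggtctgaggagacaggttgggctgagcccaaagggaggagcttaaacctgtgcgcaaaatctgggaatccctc

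HNF1 factors bind to liver promoters, including those of fibrinogen and albumin family genes. In the 250 bases before the start, GTTAAT was found once in each of Afp (first base 105 before the start, on the strand of the gene), Fga (43 before, on the opposite strand) and Fgb (29 before, on the opposite strand). It was not found in Fgg or before either of the 2 starts listed for Rbp4. Of 32851 promoters in the table, 6.43% held these letters in the same window. TATAAA stood 7 bases before the start of Afp and 28 before one start of Rbp4, and 12.4% of promoters held it. TGTTTAC, a FOXA motif held by 3.17% of promoters, was found once, 241 bases before the other Rbp4 start. Neither AAAGTCC, for HNF4 (3.58% of promoters), nor AGATAA, for the GATA factors (9.99%), was found before any of the 5 matched genes. None of these matches overlapped another. Promoters of Ttr and Trf were not searched.

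Visceral endoderm was first set against the epiblast of the same stage. At E6.5 all 7 genes were higher, where 9.58% of the 13493 genes tested were called higher. This count, like those below, is no test of the set, since the genes were chosen with earlier results of these data known. The log2 folds were 8.78 ± 0.45 for Ttr, 8.86 ± 0.46 for Afp, 8.04 ± 0.71 for Rbp4 and 6.63 ± 0.79 for Trf (± SE), with adjusted p of at most 2.97e-06. Fgb had a fold of 6.43 ± 0.23, Fgg of 4.50 ± 0.24 and Fga of 2.84 ± 0.20, with adjusted p of at most 2.19e-09. The least abundant gene, Fga, had the smallest fold of the 7.

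At E5.5, 6 of the 7 genes were higher in visceral endoderm than in epiblast, beside 9.6% of all genes tested. Over all genes 1295 were higher and 3663 lower, and with quantile normalization 2201 were higher (16.3%) and 2429 lower. Folds were 8.13 ± 0.45 for Ttr (adjusted p = 2.89e-10), 7.31 ± 0.46 for Afp (1.01e-09), 6.65 ± 0.71 for Rbp4 (7.63e-07) and 4.51 ± 0.79 for Trf (1.27e-04). Fgg had a fold of 2.59 ± 0.24 (adjusted p = 1.75e-07). Fgb was listed at 0 in both epiblast libraries and had 21.0 and 24.2 FPKM in visceral endoderm (adjusted p = 1.42e-10). Fga was also listed at 0 in epiblast, and its 0.561 and 0.925 FPKM in visceral endoderm stayed under the fold required on this scale (adjusted p = 0.00273). With a pseudocount of 0.1 in place of 1 it was called as well (adjusted p = 4.16e-05).

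Between the 2 libraries of E6.5 epiblast the small amounts of these transcripts moved with endoderm markers. In E6.5 epiblast the 7 genes summed to 1.79 FPKM in replicate 1 and 8.01 FPKM in replicate 2, and the visceral endoderm markers summed to 7.03 and 21.4 FPKM in the same libraries. All 7 genes were higher in replicate 2, which is a difference between 2 libraries only. In E5.5 epiblast the 7 genes summed to 6.03 FPKM in replicate 1 and 8.90 FPKM in replicate 2. The part of carried-over endoderm in these low values was not tested. In the other direction, 9 epiblast markers summed to 119 and 214 FPKM in E5.5 visceral endoderm and to 339 and 299 FPKM in E6.5 visceral endoderm, against 1427 and 1187 FPKM in E5.5 epiblast and 1430 and 1417 FPKM in E6.5 epiblast.

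Together the 7 genes took 0.574% and 0.517% of all FPKM in E5.5 visceral endoderm, 0.529% and 0.592% in E6.5 visceral endoderm, and 0.839% and 0.742% in E7.5 endoderm. The visceral endoderm stages overlapped and E7.5 endoderm lay above both. The largest contributor differed by stage. It was Ttr at E5.5, Afp at E6.5 and Rbp4 at E7.5.

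Next, E6.5 visceral endoderm was set against E5.5 visceral endoderm. Of the 7 genes 4 were higher, beside 24.7% of all genes tested, and none was lower. Afp rose by 2.29 ± 0.46 on the log2 scale (adjusted p = 0.00109). The fibrinogen genes rose by 2.11 ± 0.20 for Fga (2.59e-06), 1.98 ± 0.23 for Fgb (2.65e-05) and 2.21 ± 0.24 for Fgg (1.48e-05). Trf had a fold of 1.48 ± 0.79 (adjusted p = 0.164), Rbp4 of 0.81 ± 0.71 (0.429) and Ttr of -0.48 ± 0.45 (0.462), and these were not called.

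The median of all genes tested was itself 0.50 higher in E6.5 visceral endoderm, and the summed FPKM of the libraries was 455957 and 445769, against 272055 and 329462 at E5.5. Over all genes 3334 were higher and 336 lower. With quantile normalization the median shift was 0.07, and 603 genes were higher (4.47%) and 999 lower. Afp (1.92), Fga (1.78) and Fgg (1.47) were still called then, while Fgb, at 0.97 with an adjusted p of 0.00381, lay just under the fold required. With a pseudocount of 0.1 the fold of Afp was 2.30 with an adjusted p of 0.144.

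The difference between visceral endoderm and epiblast was then compared between the stages. It was larger at E6.5 for the 3 fibrinogen genes, by 2.05 ± 0.28 for Fga (adjusted p = 5.67e-04), 1.88 ± 0.33 for Fgb (0.00473) and 1.91 ± 0.34 for Fgg (0.00571), beside 5.28% of all genes tested. For the carriers this difference of differences was 0.64 ± 0.64 for Ttr, 1.54 ± 0.65 for Afp, 1.39 ± 1.00 for Rbp4 and 2.12 ± 1.11 for Trf. None of the carriers was called (adjusted p between 0.149 and 0.58). Their SE were larger than those of the fibrinogen genes, and the estimate for Trf was the largest of all. The calls thus do not show a change particular to fibrinogen. The values of Fga and Fgb rest in part on E5.5 epiblast libraries listed at 0. Over all genes 712 differences were larger and 107 smaller at E6.5, and with quantile normalization 148 were larger and 292 smaller. With quantile normalization or with a pseudocount of 0.1, Fga alone of the 7 was called.

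At E7.5 all 7 genes were higher in endoderm than in the mean of ectoderm, primitive streak and mesoderm, where 10.3% of all genes were higher. That is 1384 genes higher and 260 lower, or 1099 higher and 504 lower with quantile normalization. The fold was 9.75 ± 0.37 for Ttr, 8.97 ± 0.38 for Afp, 8.88 ± 0.58 for Rbp4 and 6.35 ± 0.64 for Trf, with adjusted p of at most 2.04e-07. Fgb had a fold of 6.94 ± 0.19 (adjusted p = 1.1e-15) and Fgg of 5.60 ± 0.20 (4.11e-14). Fga had 32.5 and 24.2 FPKM in endoderm and was listed at 0 in the 6 libraries of the other tissues (adjusted p = 1.27e-14). Rbp4 had the highest level of the 7 outside endoderm at this stage, with 4.74 and 3.32 FPKM in mesoderm, 2.06 and 3.5 FPKM in streak, and 3.05 and 0.391 FPKM in ectoderm.

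Between E7.5 endoderm and E6.5 visceral endoderm 1 of the 7 genes was called, beside 3.39% of all genes called higher. Fga rose by 1.96 ± 0.20 (adjusted p = 9.17e-07). Fgg had a fold of 0.77 ± 0.24 (adjusted p = 0.0828), Fgb of 0.42 ± 0.23 (0.556), Rbp4 of 1.60 ± 0.71 (0.33), Ttr of 0.70 ± 0.45 (0.706), Afp of -0.69 ± 0.46 (0.744) and Trf of -0.76 ± 0.79 (0.983). The libraries of these tissues did not overlap for any of the 7 genes. Rbp4 had the second-largest fold. It was called when only the compared groups were fitted (adjusted p = 0.0313) or libraries were weighted by quality (0.00106). This comparison and the step before it share the E6.5 visceral endoderm libraries. Of 8 streak and mesoderm markers 5 were called higher and 1 lower in E7.5 endoderm, with a median log2 fold of 1.06 and sums of 78.0 and 72.7 FPKM, against 114 and 179 FPKM in E6.5 visceral endoderm. Of 8 trophoblast markers 2 were called higher and none lower, with sums of 33.6 and 23.6 FPKM in E7.5 endoderm and 16.4 and 18.7 FPKM in E6.5 visceral endoderm. Their part in the result was not tested.

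**Figure D3:**
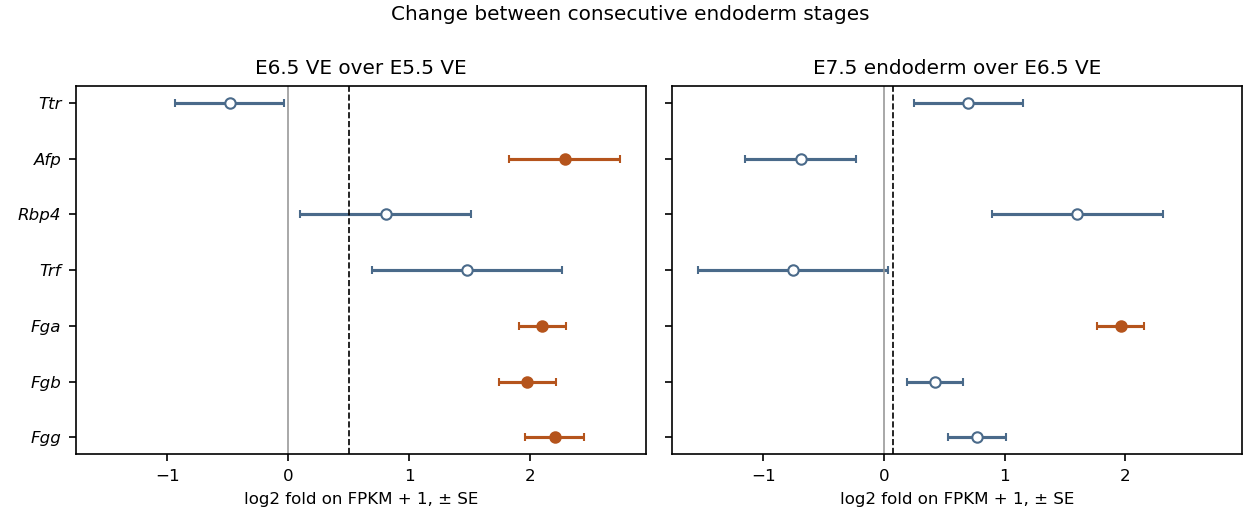
Log2 fold on FPKM + 1 (point) with its SE (bar) for each of the 7 genes, E6.5 over E5.5 visceral endoderm on the left and E7.5 endoderm over E6.5 visceral endoderm on the right. Filled orange points were called and open blue points were not, and the dashed line is the median of all genes tested. The fibrinogen genes and Afp are called on the left, and Fga alone on the right, at 1.96.

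Before implantation the genes were at or near 0. In E3.5 trophectoderm, E3.5 inner cell mass and E4.0 inner cell mass the highest value of any of the 7 was 1.23 FPKM, for Rbp4 in 1 E4.0 library, and Afp and Fga were listed at 0 in all 6 libraries. None was called between E4.0 and E3.5 inner cell mass or between E3.5 inner cell mass and trophectoderm, where 20.6% and 17.3% of all genes were called, and limma gave an unadjusted p under 0.05 for 0 of the 7 in both. The 7 genes passed the filter on low values through other tissues. At such levels a log2 fold of 1 on FPKM + 1 was hardly within reach, so the missing calls are no result about the genes. Between E4.0 and E3.5 inner cell mass 2130 genes were higher and 648 lower, or 1194 higher and 1179 lower with quantile normalization. The visceral endoderm markers summed to 152 and 216 FPKM in E3.5 trophectoderm, 17.4 and 15.6 FPKM in E3.5 inner cell mass and 173 and 135 FPKM in E4.0 inner cell mass. Against E4.0 inner cell mass 6 of the 7 genes were higher in E5.5 visceral endoderm, beside 9.66% of all genes (1303 higher and 3473 lower, or 2142 higher and 2218 lower with quantile normalization), with folds of 9.87 ± 0.45 for Ttr, 7.71 ± 0.71 for Rbp4 and 5.95 ± 0.79 for Trf. Stage and preparation of the sample change together here and cannot be told apart.

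Cultured embryos were compared within their own tables. After 4 days Ttr had 1318 and 931 FPKM in cultured visceral endoderm and was listed at 0 in cultured epiblast (adjusted p = 1.32e-11). Afp had 74.7 and 60.1 FPKM (adjusted p = 7.64e-09), Fgb 24.9 and 17.2 FPKM (1.52e-10), Fgg 5.22 and 8.10 FPKM (2.93e-08) and Fga 0.790 and 1.77 FPKM (1.56e-04) in cultured visceral endoderm, and all 4 were listed at 0 in cultured epiblast. Rbp4 had 59.3 and 22.4 FPKM in visceral endoderm, against 0.630 and 2.50 FPKM in epiblast, a log2 fold of 3.98 ± 0.71 (adjusted p = 2.45e-04). With these, 6 of the 7 genes were higher in cultured visceral endoderm, beside 13.6% of all genes. Trf had 4.87 and 1.69 FPKM there, against 0 and 0.140 FPKM in epiblast, and was not called (1.90 ± 0.79, adjusted p = 0.0768). Fitted on these 4 libraries alone, Rbp4 (adjusted p = 0.0589) and Fga (0.0801) were not called either, and 816 of the 13493 genes (6.05%) were higher.

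The proportions among the genes in cultured visceral endoderm were dominated by Ttr, which ranked 19 and 35 in its libraries. Rbp4 amounted to 0.0450 and 0.0241 of Ttr, and Afp to 0.0567 and 0.0645 of Ttr. Within fibrinogen, Fga took 2.56% and 6.53%, Fgb 80.5% and 63.5%, and Fgg 16.9% and 29.98%. Since the culture tables were made apart from the in vivo table, no test was made between them. The cultured visceral endoderm libraries differed in their makeup, with visceral endoderm markers at 3138 and 1810 FPKM and epiblast markers at 316 and 73.9 FPKM, and the part of this in the spread of Rbp4 and Trf was not tested. Without replicate 2 of cultured visceral endoderm, Fga stayed under the fold required and was no longer called (adjusted p = 0.00565).

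In embryos cultured for 2 days Ttr had 36.4 and 24.9 FPKM, against 0 and 1.44 FPKM after 1 day, a log2 fold of 4.32 ± 0.45 (adjusted p = 3.46e-06). It was the 1 gene of the 7 called, beside 4.08% of all genes called higher. Fitted on these 4 libraries alone, Ttr kept the same fold with an adjusted p of 0.845, and limma called 0 of the 13493 genes, with an unadjusted p under 0.05 for 697. With libraries weighted by quality its adjusted p was 0.255, and 29 genes were called, 15 higher and 14 lower, in place of 551 higher and 320 lower. Without replicate 1 of the 1-day embryos 462 were higher and 572 lower, and 1373 were higher and 774 lower without their replicate 2. Rbp4 had 7.35 and 0 FPKM after 2 days and was listed at 0 after 1 day. Trf had 0 and 8.73 FPKM after 2 days and 0.0102 and 7.14 FPKM after 1 day. The fibrinogen genes reached at most 0.107 FPKM in any of these libraries. Trophoblast markers summed to 1080 and 765 FPKM after 2 days and 438 and 333 FPKM after 1 day, and the visceral endoderm markers to 222 and 158 FPKM after 2 days and 0.364 and 49.5 FPKM after 1 day.

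**Figure D4:**
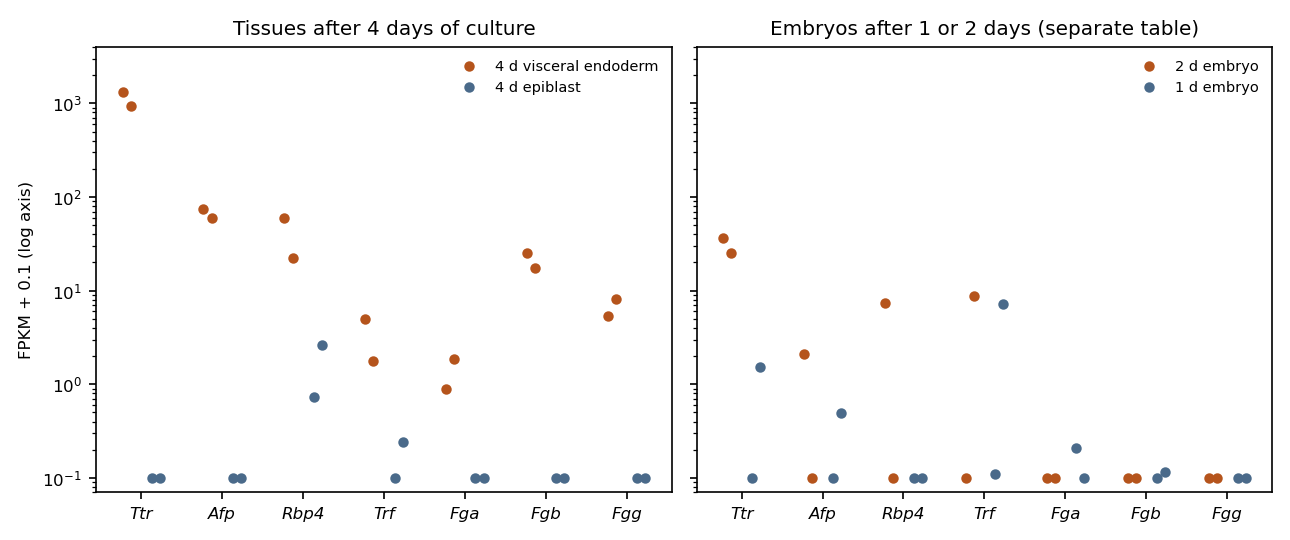
Level of the 7 genes (FPKM + 0.1, log axis) in culture, from 2 tables normalized separately. The left panel shows visceral endoderm (orange) and epiblast (blue) after 4 days, and the right panel whole embryos after 2 days (orange) and 1 day (blue). A point is 1 library, and the lowest level of 0.1 stands for genes listed at 0. On the right, Ttr at 36.4 and 24.9 FPKM after 2 days is the highest value.

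Other serum proteins that hepatocytes secrete were mostly at or near 0 in endoderm. Of 21 such genes 7 passed the filter. At E5.5, 1 was higher in visceral endoderm than in epiblast (Ambp, with 3.19 and 0.437 FPKM in visceral endoderm and 0 in epiblast, adjusted p = 0.00228) and 1 lower (Fetub, -1.18 ± 0.33, 0.0062). At E6.5, 2 were higher, Ambp (3.72 ± 0.31, 3.9e-08), the precursor of alpha-1-microglobulin and bikunin, and Igfbp1, a binding protein for insulin-like growth factors, with 1.94 and 1.37 FPKM in visceral endoderm and 0 in epiblast (1.23e-06). In E7.5 endoderm 6 of the 7 were higher than in the other tissues and none was lower. Among all genes tested, 9.6% were higher at E5.5, 9.58% at E6.5 and 10.3% at E7.5, and 27.1% were lower at E5.5. The E5.5 counts of 1 in each direction are thus no result about this list. In vivo, endoderm levels stayed below those of the 4 carriers, and the highest, Ambp, averaged 25.9 ± 1.9 FPKM in E7.5 endoderm (SD, n = 2). The median log2 fold of the 7 at E6.5 was 0.53, beside -0.06 for all genes tested.

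Of 18 genes of coagulation and fibrinolysis tested among 30, 10 were higher in visceral endoderm at E5.5, 11 at E6.5 and 12 in E7.5 endoderm, and none was lower. Of all genes tested 9.6%, 9.58% and 10.3% were higher in these comparisons. Vkorc1, which recycles the vitamin K that clotting factors need, averaged 198 ± 10 FPKM in E6.5 visceral endoderm and 44.0 ± 7.6 FPKM in E6.5 epiblast (log2 fold 2.15 ± 0.66, adjusted p = 0.024). Tfpi, an inhibitor of the tissue factor pathway, averaged 98.2 ± 15 FPKM in E6.5 visceral endoderm and 1.65 ± 0.48 FPKM in E6.5 epiblast (5.23 ± 0.73, 1.97e-05). F5, the cofactor of the enzyme that makes thrombin, averaged 19.5 ± 4.5 FPKM in E6.5 visceral endoderm and 0.155 ± 0.072 FPKM in E6.5 epiblast (4.13 ± 0.43, 5.67e-07). Between E7.5 endoderm and E6.5 visceral endoderm 3 of the 18 were higher and 1 lower, beside 3.39% and 0.875% of all genes tested. Serpinf2, the plasmin inhibitor, was higher (1.26 ± 0.26, adjusted p = 0.00393). The other calls, named after their values were seen, were Plg, which encodes the precursor of plasmin (1.62), and Serpinc1, the inhibitor of thrombin (1.08), both higher, and F5 (-2.49), lower. The median log2 fold of the 18 at E6.5 was 1.84.

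Genes that handle the cargo of the carriers were called in both directions at E6.5, where 9.58% of all genes were higher and 6.95% lower in visceral endoderm than in epiblast. Of 7 retinol genes tested among 10, 3 were higher and 2 lower. Crabp2, which binds retinoic acid inside cells, averaged 2.01 ± 2.0 FPKM in E6.5 visceral endoderm and 40.2 ± 0.91 FPKM in E6.5 epiblast (-3.96 ± 0.97, adjusted p = 0.00542). Of 10 iron genes tested among 12, 3 were higher and 3 lower at E6.5. Fth1, the heavy chain of the iron store ferritin, averaged 3464 ± 121 FPKM in E6.5 visceral endoderm and 659 ± 34 FPKM in E6.5 epiblast (2.39 ± 0.24, 3.66e-07). Slc40a1, the iron exporter, averaged 122 ± 34 FPKM in E6.5 visceral endoderm and 4.16 ± 0.18 FPKM in E6.5 epiblast (4.55 ± 0.66, 3.44e-05). Of 5 thyroid hormone genes tested among 8, 1 was higher and 1 lower at E6.5. The transporter Slc16a10 was higher (1.68 ± 0.34, adjusted p = 0.00113).

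Transcription factors of hepatocytes and endoderm were higher for 9 of 15 tested among 18 in visceral endoderm at E5.5 and at E6.5, for 8 in E7.5 endoderm and for 9 in cultured visceral endoderm, and none was lower in these comparisons. The shares of all genes called higher were 9.6% at E5.5, 9.58% at E6.5, 10.3% at E7.5 and 13.6% in culture. Foxa2 averaged 50.8 ± 0.87 FPKM in E6.5 visceral endoderm and 1.36 ± 0.19 FPKM in E6.5 epiblast (4.46 ± 0.50, adjusted p = 1.34e-06). Between E7.5 endoderm and E6.5 visceral endoderm limma called 0 of the 15, with an unadjusted p under 0.05 for 3 of them. Only 4.26% of all genes were called there, so the missing calls are no result about these factors. The median log2 fold of the 15 was 1.80 at E6.5. Foxa2 (-0.49 ± 0.50) and Foxa3 (-0.19 ± 0.47), among the most abundant of them, had adjusted p of at least 0.973.

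Across the 22 in vivo libraries the 7 genes varied together. Pearson r of log2(FPKM+1) was 0.99 between Afp and Fgb and 0.988 between Fgb and Fgg, and lowest, at 0.823, between Ttr and Fga. These libraries share stages and tissues, so the values describe a common pattern of 3 high and 8 low tissues. The genes most like Ttr were Apoa4 (0.992), Apob and Slc39a5. Those most like Afp were Vil1 (0.992), Lect2 and Apob. For Rbp4 they were Slc13a4 (0.991), Mttp and Slc39a5, and for Trf Apoa4 (0.991), Slc39a5 and Nrk.

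Gjb1 (0.998), Cdhr2 and Slc2a2 were most like Fga, Spp2 (0.995), Il22ra1 and Vil1 most like Fgb, and Il22ra1 (0.991), Cfb and Serpinf2 most like Fgg. Gjb1, a gap junction protein, averaged 0.603 ± 0.13 FPKM in E5.5 visceral endoderm, 5.48 ± 0.94 FPKM in E6.5 visceral endoderm and 19.6 ± 3.5 FPKM in E7.5 endoderm. Slc2a2, a glucose transporter, averaged 3.27 ± 2.8 FPKM, 17.5 ± 0.22 FPKM and 119.7 ± 23 FPKM in the same tissues. Apoa4, an apolipoprotein close to Ttr and Trf, averaged 154 ± 77 FPKM, 249.95 ± 10 FPKM and 196 ± 9.1 FPKM in these tissues. Over all 7 genes the closest on average were Spp2 (0.971), Il22ra1, Slc39a5, Akr1c19, Slc7a9, Serpinf2, Adora2b, Vil1, Cldn2 and Cideb.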

How the data were processed

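Gene expression in 30 poly(A) RNA-seq libraries of mouse embryos was used, 22 in vivo, 4 after culture for 4 days and 4 after culture for 1 or 2 days, each kind in its own table. The deposited values are FPKM that the authors made by mapping to mm9 with TopHat2 2.0.11 and Cufflinks 2.0.2, per the submitters' processing notes. How the tables were normalized beyond FPKM is not given in the sources used here, so comparisons stayed within a table. Maps of methylation and chromosome contacts, and embryos lacking Tet1 and Tet2, were not used here.

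In vivo, 27 symbols turned into dates were left out, and values of 1e-06 or less were set to 0. Genes were kept where 2 or more libraries reached 1 FPKM, which left 13493 of 22563. On log2(FPKM+1) values limma 3.58.1 (R 4.3.3) was fitted once over the 15 groups, with a trend of the variance on the mean and 15 residual degrees of freedom. P-values were adjusted by Benjamini-Hochberg across the genes kept, separately for each comparison. A call combined an adjusted value below 0.05 with a log2 fold of 1 or more in either direction. Levels are means ± SD over 2 libraries. The fit was tested on simulated data. No fold between 2 groups is given where either was listed at 0 in all its libraries.

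The 7 genes, the gene lists and the motifs were chosen with earlier results of these data known. From each list the 3 genes with the highest mean FPKM in a comparison could be named, of which some are not reported here, and as neighbours the genes with the highest Pearson r over the 22 in vivo libraries, passing over symbols of the Gm, Rik, Mir, Snor, LOC, AI and BC kinds. The alternatives changed the pseudocount to 0.1, dropped the filter or raised it to 5 FPKM, applied quantile normalization, took replicate number as a block, weighted libraries by quality, restricted the fit to the compared groups, or omitted single libraries. Promoter sequences came from RefSeq (GRCm38.p6), and none of its coordinates was set against mm9. Promoters of the 7 genes on chromosome 18, where Ttr lies, were left out. For Trf, on chromosome 9, no promoter was matched, and 5 of the 7 genes remained with a promoter.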

Additional observations from a re-analysis of the deposited data

Results flagged for a closer look

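The difference between visceral endoderm and epiblast was larger at E6.5 than at E5.5 for the 3 fibrinogen genes, by the test of the difference itself in the fit over all genes. On the log2 scale it was larger by 2.05 for Fga (adjusted p = 5.67e-04), by 1.88 for Fgb (adjusted p = 0.00473) and by 1.91 for Fgg (adjusted p = 0.00571). With quantile normalization Fgb (adjusted p = 0.0896) and Fgg (0.053) lost their call, as they did with a pseudocount of 0.1 (0.284 and 0.448), and Fga alone was called. Trf, at 2.12 with a larger SE of 1.11, was not called, so the calls do not show a change particular to fibrinogen. E5.5 epiblast was listed at 0 for Fga and Fgb. Epiblast stayed under 1 FPKM at both stages for all 3 genes. The median of all genes tested for this difference was 0.41. The groups of 2 libraries were too small to look for a library far from the others.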

How the results depend on the processing

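Folds under the alternatives were not recorded for comparisons among blastocyst tissues. For embryos cultured 2 days over 1 day only the fold of Ttr was recorded. Small folds of these comparisons could thus not count as reversed. No member changed direction under any alternative among the folds recorded. Of these, 664 gave the same call, 8 gained one and 11 lost one. The number of members called differed from the reported one in few settings. The count for the change of the visceral endoderm to epiblast difference between stages was 1 with a pseudocount of 0.1 and 1 with quantile normalization, in place of 3. For E7.5 endoderm over E6.5 visceral endoderm it was 2 with library weights and 2 with only the groups compared, in place of 1, since Rbp4 was added. For embryos cultured 2 days over 1 day it was 0 with library weights and 0 with only the groups compared, in place of 1, and from 1 to 2 as single libraries were left out. The cause was not tested.

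In cultured visceral endoderm against epiblast, Rbp4 (adjusted p = 0.0589) and Fga (0.0801) lost their call when only these groups were fitted, and the count was 4 in place of 6. Leaving out single libraries gave 5 to 6 members there, and the reported count in the 9 other comparisons. Deviations of same-numbered libraries correlated at a median of -0.0026 over 105 pairs of groups, above 0.1 in 10. Among E7.5 streak, mesoderm and endoderm all pairs were above 0.1 (0.258, 0.365 and 0.202), while E7.5 ectoderm correlated with them at no more than 0.0157. The highest of all pairs, 0.438, crossed stages, between E6.5 epiblast and E7.5 ectoderm. The lowest was -0.268, between E6.5 epiblast and E7.5 mesoderm, and 8 pairs lay below -0.1. The labels state no shared source for a number. With replicate number as a block the counts of members called were 6 at E5.5, 7 at E6.5 and 4 between visceral endoderm stages, and they did not change in any of the 11 comparisons. Over all genes, counts of calls moved by more than 1.5 times in 21 of 52 fits that left out a library and in 11 of 77 other fits. Those include 1602 with quantile normalization in place of 3670 for E6.5 over E5.5 visceral endoderm, 61 without E6.5 epiblast replicate 2 in place of 819 for the change of the difference between stages, and 1111 with library weights in place of 575 for E7.5 endoderm over E6.5 visceral endoderm.

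Depth is unknown, so no floor can be given for values listed at 0. With 2 libraries a group, the spread of a gene is borrowed from all 15 groups, and a lone remaining library is assumed to vary like the others. Pseudocounts bear most on Fga, which stayed under 1 FPKM in E5.5 visceral endoderm.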
